A study of Mus musculus with 109 samples.

Results

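The Palld and Ddx60 region is the 4 Mb of mouse chromosome 8 from 62000001 to 66000000 (mm9), which holds 1363 of the 823352 HindIII sites of the deposited contact table. It was chosen from measured values. Its bin at 64000001 to 64500000, where Palld and Ddx60 lie, was the highest of 243 bins in the mean contact profile of the bait near Maf, called B118. Values of B118 in this region are therefore given as a description, with no p-value, while the 5 other baits of chromosome 8 and the labelled times were not used by the choice.

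Circular chromosome conformation capture (4C-seq) asks which pieces of the genome lay near 1 chosen fragment, the bait, when cells were fixed. Cross-linked chromatin is cut with HindIII and ligated, and the partners of the bait are amplified and sequenced, so a read at a distant HindIII site records a ligation between that site and the bait. Mammalian chromosomes fold into domains, and at larger distances domains rich in genes and GC tend to meet each other, while gene-poor domains meet gene-poor ones. After mitosis this arrangement has to be rebuilt in each daughter nucleus.

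All libraries came from C127, an established mouse mammary tumour line, with no genetic change stated. Cells were held in mitosis by a 4 h nocodazole block and fixed there (label M) or after release for 30 min, 1 h, 2 h, 3 h or 4 h. G2 cells were released for 15 h, and G0 cells were starved of serum for 5 days. Each of 6 baits had 2 libraries labelled 30 min, 1 h and G0, 2 technical replicates labelled 2 h that were summed to 1, and 1 library each for 3 h, 4 h and G2. B7, B26, B44 and B53 also had 1 labelled M, which gave 11 libraries at these 4 baits and 10 at B87 and B118. First hour below means the 4 libraries labelled 30 min and 1 h, and 2 to 4 h means the 3 labelled 2 h, 3 h and 4 h.

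Some libraries stood apart before any result was drawn. Between the libraries labelled 1 h replicate 2 and 2 h technical replicate 1, 64.9% to 96.7% of trans sites (captured sites outside chromosome 8, as a share of the library with fewer) were in common. In the Palld and Ddx60 region this was 93.0% to 99.2%. At B26, B44, B53 and B118, 1 library labelled G0 also had 26.8% to 83.6% of such sites in common with them, 4.01 to 15.1 times the product of the libraries' own shares. For the pair labelled as technical replicates of 2 h it was 8.57% to 27.0%, or 1.90 to 2.61 times that product. Other pairs also shared many sites. At B7, 30 min replicate 2 and 3 h had 32.0% in common (14.6 times), and 52.9% in the region. The same pair had 2.41 to 4.87 times that product at the other baits. The other G0 library had 15.4% in common with 2 h technical replicate 2 at B26 (5.51 times). At B53 it had 15.4% in common with 1 h replicate 1 (6.61 times). Every label below therefore names a library and not a cell cycle phase, and results are repeated without 1 h replicate 2 and 2 h technical replicate 1. Of 109 columns, 39 (other chromosomes' baits and 1.5 h) were left out, and in all 70 used most reads near a bait lay at the labelled one. Totals ran from 266006 to 8826711 reads (median 2985117).

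The 4 baits on which the results turn are shown by their primers on the plus strand of mm9, 5′ to 3′, with the HindIII site in capitals, since this end defines the fragment whose contacts were read. B118 lies at chr8:118459309-118459328, B26 in an intron of Whsc1l1 at chr8:26774313-26774332, B87 in an intron of Dnase2a at chr8:87434064-87434081, and B53 between genes at chr8:52961959-52961978.
B118: cctcatacagctggAAGCTT
B26: ttgagtttgacgccAAGCTT
B87: gggcggagatggAAGCTT
B53: aaacatgtttggccAAGCTT
The 5 sites of the region captured in most of the 70 libraries, and the first site of B53, are shown next on the plus strand with 30 bases on each side of the HindIII site, which is again in capitals. They lie, in the order printed, at chr8:64255883-64255888 in a Palld intron, chr8:63865425-63865430 in a Sh3rf1 intron, chr8:63592673-63592678 in a Nek1 intron, chr8:62794613-62794618 and chr8:63207841-63207846 between genes, and chr8:65470870-65470875 in a Spock3 intron.
Palld site: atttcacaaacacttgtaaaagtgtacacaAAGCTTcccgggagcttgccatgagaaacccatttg
Sh3rf1 site: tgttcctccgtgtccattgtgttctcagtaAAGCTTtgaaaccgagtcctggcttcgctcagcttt
Nek1 site: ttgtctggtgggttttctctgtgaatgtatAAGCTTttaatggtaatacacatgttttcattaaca
Left flank site: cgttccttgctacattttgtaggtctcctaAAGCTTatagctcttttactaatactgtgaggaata
Middle intergenic site: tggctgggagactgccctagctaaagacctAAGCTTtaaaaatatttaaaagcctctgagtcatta
Spock3 site: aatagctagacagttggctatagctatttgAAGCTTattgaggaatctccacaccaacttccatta

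The region holds 13 protein-coding genes and has 39.1% GC, against 42.2% in the median 500-kb bin of chromosome 8. Its middle 3 bins, 63000001 to 64500000, are the ones with more than 40% GC (41.6% together, 510 sites) and touch 10 of the 13 genes. Gene bodies cover 64.6% of this middle. From left to right they are Aadat, an aminotransferase of lysine and kynurenine breakdown, Mfap3l, a membrane protein, 2700029M09Rik, Clcn3, a chloride and proton exchanger of endosomes, B230317F23Rik, Nek1, a kinase of cilia and the DNA damage response, Sh3rf1, a scaffold with ubiquitin ligase activity, Cbr4, a mitochondrial carbonyl reductase, Palld, an actin-binding scaffold, and Ddx60, an RNA helicase of the antiviral response. Palld is the longest of these at 389 kb (chr8:63992043-64381487, minus strand), and Ddx60 (chr8:64406884-64516498, plus strand) crosses the right edge. The left flank, 374 sites at 38.2% GC, holds Gm10283 and the start of Aadat. The right flank, 479 sites at 37.2% GC, holds the end of Ddx60, the annexin gene Anxa10 and the testican proteoglycan gene Spock3. By annotation 834 of the 1363 sites lie between genes, 497 in introns, 18 in other exons, 7 in coding exons and 7 in UTRs.

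A site counts as captured when it has 1 read or more. Libraries captured from 17 to 1045 of the 1363 sites (median 385), or 1.25% to 76.7%. The nearest bait, B53, lies 9.04 to 13.0 Mb away and captured a median of 821.5 sites with 121730.5 reads. B118, on the other side at 52.5 to 56.5 Mb, captured a median of 380 sites with 24571 reads, and B7, at 54.8 to 58.8 Mb, a median of 136 sites with 6699.5 reads. B26 (35.2 to 39.2 Mb), B44 (17.6 to 21.6 Mb) and B87 (21.4 to 25.4 Mb) captured medians of 413, 637.5 and 365 sites. Since reads are PCR products without molecular identifiers, captured sites were used first and reads beside them. Of the 1363 sites, 245 were captured in 0 of 70 libraries, and 136 of these have no 36-base end that is unique in mm9.

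Observed over expected below is the number of captured sites in a library, thinned to the same number for all libraries of a bait, over the number that a smooth curve of captured sites against distance gives. On this log2 scale, summed over the region's 8 bins, 5 baits had means near 0. The means were 0.05 ± 0.23 at B7 (SD, n = 11 libraries), 0.11 ± 0.17 at B26 (n = 11), 0.13 ± 0.09 at B44 (n = 11), 0.10 ± 0.10 at B53 (n = 11) and 0.10 ± 0.19 at B118 (n = 10). This small excess depends on how bins are combined: as the mean of 8 log2 values per bin the region had -0.18 at B7, -0.19 at B26 (above 0 in 4 of 11 libraries) and -0.09 at B118, so the direction turned at these 3 baits. Summed, B44 was above 0 in 11 of 11 libraries, B26 in 10 of 11, B53 in 9 of 11, B118 in 8 of 10 and B7 in 7 of 11. The Dnase2a bait B87 was the exception, at -0.31 ± 0.35 (n = 10) and above 0 in 1 library.

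Among the 10 pairs of the 5 baits that did not choose the region, 3 differed in a two-sided exact sign-flip permutation test over libraries of the same label and replicate number. B87 was lower than B26 by 0.40 ± 0.35, than B44 by 0.44 ± 0.33 and than B53 by 0.42 ± 0.44 (SD of the differences), in 10 of 10 libraries each time. Each of these had an exact p of 0.00195, the smallest that 10 libraries allow, and an adjusted p of 0.00651 over the 10 pairs. Differences in the other 7 pairs ran from -0.08 to 0.34 and missed the threshold (exact test, adjusted p 0.176 to 0.923), the largest being B7 minus B87. With reads in place of captured sites that pair passed as well, at 0.57 (exact test, adjusted p = 0.00651). B118 was above B87 in 9 of 10 libraries, by 0.41 ± 0.50, which is given with no test.

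Single bins within the region departed far more from distance than the whole. At B118 the Palld and Ddx60 bin had 0.75 ± 0.55 (n = 10, above 0 in all 10), the value that placed it 1st of 243. Next to it, the bin of Nek1, Sh3rf1, Cbr4 and the Palld end had 0.43 ± 0.35, rank 9, and the bin from Aadat to Nek1 had 0.31 ± 0.57, rank 19. The bin just beyond Ddx60, with Anxa10, had -0.41 ± 0.45, rank 175, and was above 0 in 2 of 10. Spock3's last bin, at 65500001 to 66000000, had -0.81 ± 0.76, rank 225, and was below 0 in all 10. The 2 left flank bins had -0.56 ± 0.36 and -0.11 ± 0.26. Ranks 1 and 175 were thus held by adjacent bins, which meet at 64500001 inside Ddx60.

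**Figure D1:**
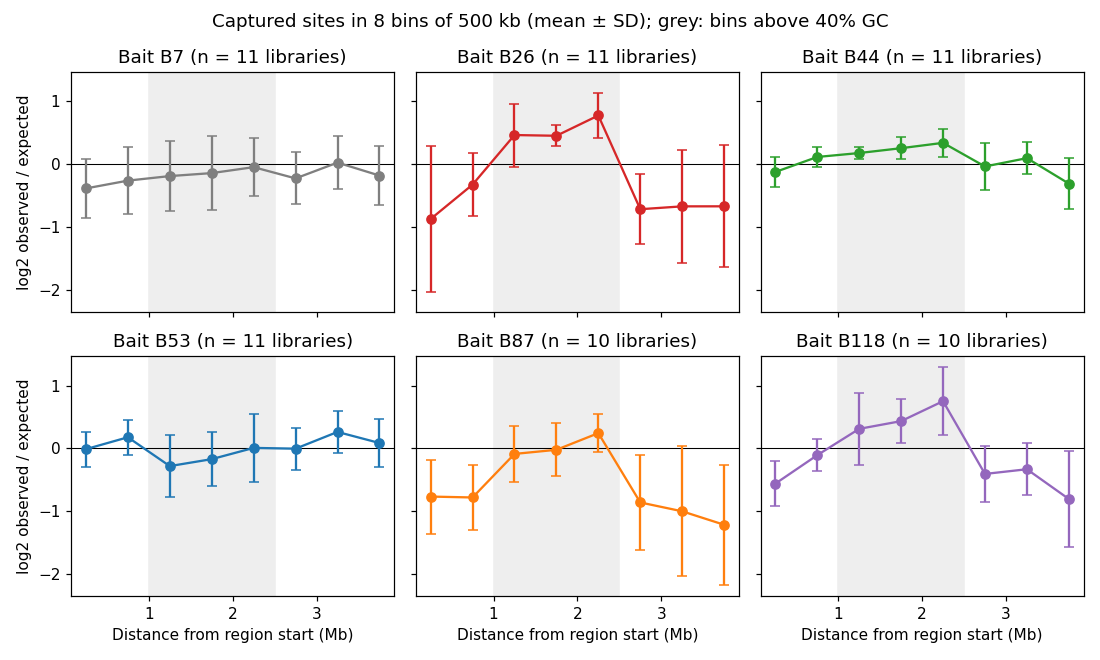
Log2 observed over expected captured sites (vertical axis) in the 8 bins of 500 kb (horizontal axis, Mb from the region's start) for each bait, as points for the mean and bars for the SD over libraries. The 3 bins above 40% GC, shaded, stand above both flanks at B26, B87 and B118, weakly at B44, and not at B7 or B53.

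The Whsc1l1 bait B26, which had no part in the choice, drew nearly the same outline from the other side of the region. Its Palld and Ddx60 bin had 0.78 ± 0.35 (n = 11, above 0 in all 11), rank 2 of 243. The lowest library there had 0.48 and the highest 1.51. Its 2 other middle bins had 0.47 ± 0.50 (rank 13) and 0.45 ± 0.17 (rank 14), and its 5 flank bins ran from -0.87 to -0.32, the Anxa10 bin being below 0 in 11 of 11 libraries. B87 had the same outline at a lower level. Its Palld and Ddx60 bin had 0.24 ± 0.30 (n = 10, above 0 in 7), rank 33, and its last Spock3 bin had -1.22 ± 0.96, rank 230 and below 0 in all 10. At B44 the Palld and Ddx60 bin had 0.34 ± 0.22 (above 0 in 10 of 11), rank 11, with the other bins between -0.31 and 0.26.

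The gene-poor baits did not share this outline. At B53 the 3 middle bins had -0.28 ± 0.50, -0.17 ± 0.43 and 0.01 ± 0.55 (n = 11), ranks 141, 123 and 88. Its highest bin of the region was 65000001 to 65500000, where Spock3 begins, with 0.26 ± 0.34 and rank 34. B7 was flat, from -0.39 ± 0.47 in the first bin to 0.03 ± 0.42 in the same Spock3 bin, and each of its bins had an SD above its mean's distance from 0. Over the 8 bins the mean profile of B26 had a Pearson r of 0.956 with that of B118, 0.943 with B87 and -0.581 with B53, where the same pairs over 234 bins of the chromosome gave 0.717, 0.672 and 0.0457. B87 and B118 had r = 0.960 in the region and 0.690 over the chromosome. These are descriptions over neighbouring bins, which share their GC content, genes and site density. The region was also chosen for its peak in the B118 profile. The r values with B118 depend on that choice and carry no weight beyond description.

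The Palld and Ddx60 bin alone separated more pairs of baits than the region as a whole. In the same exact sign-flip permutation test, 6 of 10 pairs differed. Other bins were not tested singly, so whether this count is particular to this bin was not tested. The last Spock3 bin also spread between these baits, with means from -1.22 at B87 to 0.09 at B53. B26 was higher than B7 by 0.82 ± 0.42 (11 of 11 libraries, adjusted p = 0.00326), than B53 by 0.77 ± 0.77 (11 of 11, adjusted p = 0.00326), than B44 by 0.44 ± 0.28 (11 of 11, adjusted p = 0.00326) and than B87 by 0.54 ± 0.49 (10 of 10, adjusted p = 0.00488). B44 was higher than B7 by 0.39 ± 0.46 (exact test, adjusted p = 0.0293) and than B53 by 0.33 ± 0.55 (10 of 11, exact test, adjusted p = 0.0156). B7, B53 and B87 were not told apart there. B53 minus B87 was -0.25 ± 0.47 (exact test, adjusted p = 0.139), opposite in sign to the difference over the region.

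**Figure D2:**
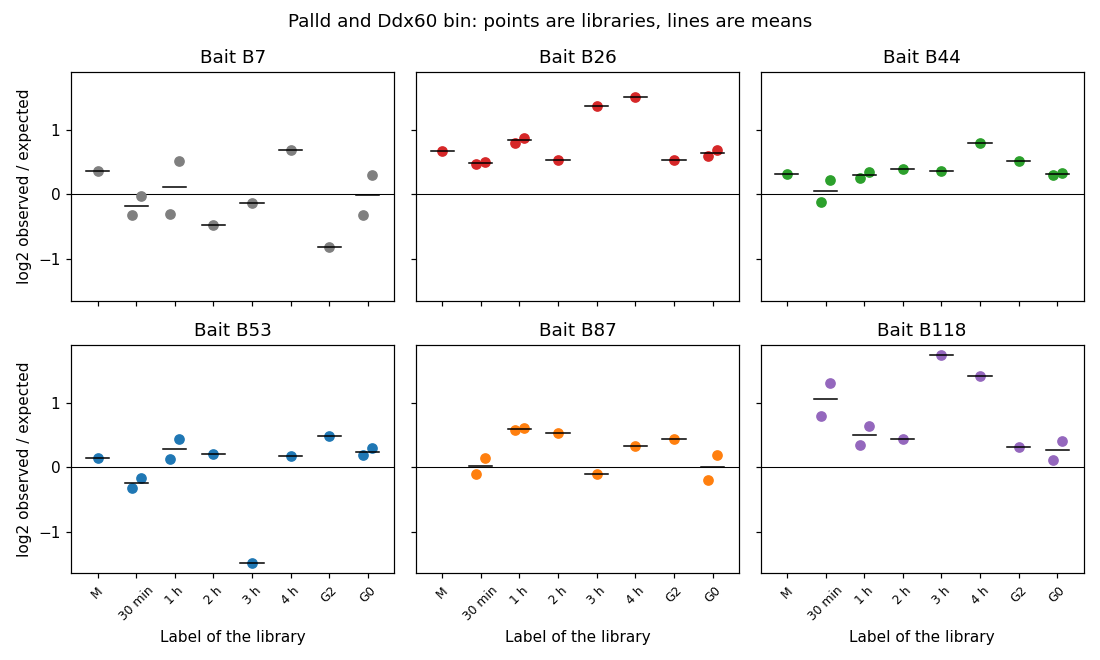
Log2 observed over expected captured sites of the Palld and Ddx60 bin (vertical axis) in each library, by label (horizontal axis) and bait, with lines at the mean of each label. All libraries of B26 and B118 lie above 0, and the lowest point of all is the B53 library labelled 3 h, at -1.48.

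By label, the B118 value of this bin was 0.80 and 1.30 in the 2 libraries labelled 30 min, 0.65 and 0.34 at 1 h, 0.44 at 2 h, 1.74 at 3 h, 1.41 at 4 h, 0.32 in G2, and 0.11 and 0.41 in G0. The 30 min, 3 h and 4 h libraries were thus above all others of this bait. At B26 it was 1.37 at 3 h and 1.51 at 4 h, above the other 9 libraries, which lay between 0.48 and 0.88. B53 went the other way at 3 h, with -1.48, and at 30 min, with -0.32 and -0.17, while its 8 other libraries lay between 0.13 and 0.48.

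The neighbouring 4-Mb windows give the region's setting. As the mean of 8 bins, B87 had -0.66 ± 0.48 in 58000001 to 62000000, -0.56 ± 0.44 in the region and -0.46 ± 0.50 in 66000001 to 70000000 (n = 10), so its low value was not confined to the region. B7 had -0.17 ± 0.26 before, -0.18 ± 0.21 in and -0.40 ± 0.16 after the region, and B44 had 0.10 ± 0.09, 0.07 ± 0.09 and 0.14 ± 0.16 (n = 11 each). B53 had 0.21 ± 0.23 before, 0.01 ± 0.08 in and -0.04 ± 0.19 after the region (n = 11). B118 had -0.19 ± 0.30, -0.09 ± 0.19 and -0.07 ± 0.25 (n = 10), B26 had -0.11 ± 0.34, -0.19 ± 0.41 and -0.36 ± 0.42 (n = 11), with differences smaller than these SDs. Averaged over 4 Mb, high and low bins offset each other at these baits.

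The study asks when contacts form after mitosis. Over the whole region at the 5 baits that did not choose it, 2 to 4 h minus first hour was -0.03 ± 0.11 (SD over 5 baits, above 0 in 2), with an exact sign-flip permutation p of 0.6875. G0 minus 2 to 4 h was 0.05 ± 0.23 (above 0 in 3 of the 5 baits, exact p = 0.6875). With 5 baits this test cannot go below 0.0625, and baits may share cultures, so it speaks for baits and not for repeated cultures. Over all 6 baits, as a description, the differences were -0.02 ± 0.10 and -0.02 ± 0.27, and -0.03 ± 0.11 and -0.05 ± 0.37 without 1 h replicate 2 and 2 h technical replicate 1. The second difference thus changed sign when B118 was included. Baits moved opposite ways in it. In libraries labelled G0 the region was lower than at 2 to 4 h with no overlap at B118 (-0.17 against 0.20) and at B7 (-0.14 against 0.10), and higher with no overlap at B26 (0.26 against -0.01). It overlapped at B44, B53 and B87. By reads B7 turned, with 0.26 and 0.17 in G0 against 0.06, -0.19 and -0.02 at 2 h, 3 h and 4 h. With all captured sites in place of thinned ones B26 overlapped, since its 3 h library had 0.29 and its G0 libraries 0.28 and 0.28. At B118 G0 stayed lower with no overlap by both measures.

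Reads summed in 500-kb bins were tested with edgeR's quasi-likelihood test over the 1461 bins of all 6 baits together. For 2 to 4 h against first hour 0 of 1461 bins passed an adjusted p of 0.05 (0% of all bins), and 0 of the 40 of the region at the 5 baits other than B118. At an unadjusted p under 0.05 there were 28 of all and 1 of these 40, and DESeq2 called 0. For G0 against 2 to 4 h edgeR again called 0 of 1461 (0%) and 0 of 40, with 457 of all (31.3%) and 2 of 40 (5% against 34.1% of all bins of these 5 baits) at an unadjusted p under 0.05. The median log2 fold change of these 40 bins was 0.44, with 27 above 0, and that of all bins of the 5 baits was -0.18. DESeq2 called 361 of 1461 in this contrast and 2 of the 40.

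One of those bins was the Palld and Ddx60 bin at B53. It had 15750 and 14528 CPM (reads scaled to the library's TMM-normalised reads in tested bins) in G0 against 6090, 815 and 4813 at 2 h, 3 h and 4 h, with no overlap. Its log2 fold change was 1.95 ± 0.69 (SE; edgeR adjusted p = 0.0973, DESeq2 adjusted p = 0.0341). The other was B26 at 62500001 to 63000000, the bin of Gm10283, with 3845 and 3451 CPM in G0 against 2295, 539 and 252 (log2 fold change 1.82 ± 0.83, edgeR adjusted p = 0.167, DESeq2 adjusted p = 0.0258). B118 had the reverse of B53 in the Palld and Ddx60 bin, 1679 and 1058 CPM in G0 against 3036, 12229 and 7947, a log2 fold change of -2.50. The 3 h and 4 h libraries that stand highest here also raised the mean profile from which the bin was chosen, so this is a description. Whether the B118 and B53 changes differ from each other was not tested.

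Leaving out the library labelled 2 h changed these calls. edgeR then called 30 of 1460 bins for 2 to 4 h against first hour, 3 of them among the region's 48. For G0 against 2 to 4 h it called 233 of 1460, 4 of them in the region at baits other than B118. All 7 were flank bins of B26 or B87, and most of them held few or 0 reads in the libraries labelled 3 h and 4 h. B26 had 0 reads from 62000001 to 62500000 in both, and B87 had 0 in the last Spock3 bin in both, where a count of 0 allows up to 3, while the same bin of B87 had 5935 and 6137 CPM in G0.

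The contrast between the middle and the flanks was followed in every library as the log2 ratio of the share of sites captured in the 3 middle bins to that in the 5 flank bins. This split, by GC above 40%, was made after the profiles were seen, so it has no test. The ratio was 1.30 ± 1.21 at B26 (n = 11), 1.08 ± 0.89 at B87 (n = 10) and 0.93 ± 0.69 at B118 (n = 10), and above 0 in every library of the 3 baits. At B44 it was 0.31 ± 0.11, above 0 in 11 of 11. At B7 it was 0.02 ± 0.47 (6 of 11) and at B53 -0.20 ± 0.80 (7 of 11). Unique sequence is unevenly spread: 90.2% of middle sites and 76.7% of flank sites have both 36-base ends unique in mm9. Over the 1214 sites with a unique end the means were 1.21 at B26, 0.99 at B87, 0.84 at B118, 0.22 at B44, -0.07 at B7 and -0.29 at B53.

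**Figure D3:**
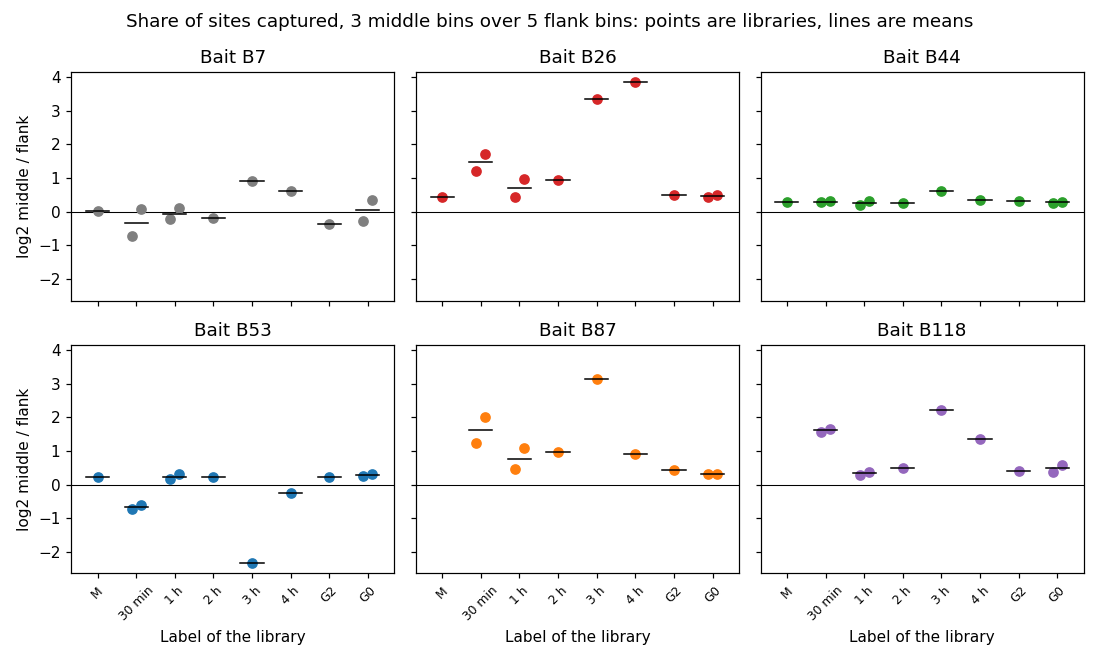
Log2 ratio of the share of sites captured in the 3 middle bins to that in the 5 flank bins (vertical axis) in each library, by label (horizontal axis) and bait, with lines at label means. At B26, B87 and B118 the points labelled 30 min and 3 h are high and those of G2 and G0 low, and at B53 those of 30 min and 3 h are the lowest.

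The ratio differed widely between labels. At B118 the 2 libraries labelled 30 min had 1.57 and 1.65, 3 h had 2.20 and 4 h had 1.36. The 2 libraries labelled 1 h had 0.29 and 0.38, 2 h had 0.50, G2 had 0.41, and G0 had 0.59 and 0.38. The 4 libraries of 30 min, 3 h and 4 h did not overlap the 6 others. At B26 the 30 min libraries had 1.20 and 1.73, 3 h had 3.35 and 4 h had 3.85, against 0.43 and 0.98 at 1 h, 0.93 at 2 h, 0.45 in M, 0.51 in G2, and 0.49 and 0.44 in G0. B87 had 1.23 and 1.99 at 30 min and 3.14 at 3 h, against 0.30 and 0.32 in G0 and 0.44 in G2. Its 4 h library, with 17 sites of the region captured, had 0.90, within the range of 1 h and 2 h. The highest ratios also rest on few sites. The 3 h library captured 39 middle and 6 flank sites at B26, and 18 and 3 at B87. The 4 h library of B26 captured 21 and 2.

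B53 mirrored this. Its ratio was -0.61 and -0.74 at 30 min, -2.33 at 3 h and -0.25 at 4 h. The ratio lay between 0.17 and 0.32 in the 7 other libraries (M, 1 h, 2 h as summed, G2 and G0). At 3 h it captured 17 of 510 middle sites and 147 of 853 flank sites. In its G0 libraries it captured 402 and 403 of the middle sites and 563 and 541 of the flank sites. B44 kept between 0.20 and 0.63 at every label. The 2 technical replicates labelled 2 h differed. Replicate 1, the one that shared sites with 1 h replicate 2, had 0.48 at B118 and 0.21 at B53, and replicate 2 had 1.10 and -0.31. At B26 replicates 1 and 2 had 0.99 and 1.51, and at B87 1.15 and 1.42. Replicate 2 thus lay below the 4 h library at B53, and above 30 min replicate 1 at B26 (1.20) and B87 (1.23). The place of 2 h among the labels at these baits depended on the replicate. At B118 replicate 2 stayed below the libraries labelled 30 min, 3 h and 4 h.

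Depth moved with these labels. At B26, B87 and B118 the 12 libraries labelled 30 min, 3 h and 4 h captured 17 to 390 sites of the region (median 81.5) and had 34.8% to 78.4% of reads on chromosome 8. The 22 other deposited libraries captured 85 to 835 sites (median 496.5) and had 51.0% to 90.0%. The 2 ranges of depth overlap. B53 30 min replicate 1 captured 703 sites at a ratio of -0.61, and B53 G2 captured 517 at 0.22. B118 30 min replicate 1 captured 380 at 1.57, and B118 G0 replicate 1 captured 91 at 0.59. A share of captured sites also flattens as it nears 100%, which reads do not. By reads the ratio at B118 was 1.68 and 1.97 at 30 min, 2.68 at 3 h and 1.36 at 4 h, against 0.30 and 0.16 at 1 h, 1.02 at 2 h, 0.49 in G2, and 1.01 and -0.22 in G0. At B53 it was -1.18 and -1.07 at 30 min, -3.04 at 3 h and -0.64 at 4 h, against 0.22 and -0.11 at 1 h, -0.61 at 2 h, -0.04 in M, 0.14 in G2, and 0.26 and 0.23 in G0. The sign of the B53 2 h library thus turned with the measure. At B26 and B87 the libraries labelled 2 h had 1.77 and 1.75 by reads, above 1 library labelled 30 min at B26 (1.50, the other 1.85) and both at B87 (1.47 and 1.58). By reads, 30 min therefore did not stand apart from 2 h at these 2 baits. The 3 h libraries (4.87 at B26, 3.12 at B87) and 4 h libraries (3.10 and 2.11) still lay above all other labels there. The part of depth in the differences between labels was not tested.

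At B118, the bait that chose the region, the edges were steep in windows of 100 kb. In the 30 min libraries of B118 each of the 15 middle windows had 31.2% to 46.4% of its sites captured (sites with a unique end, mean of 2 libraries), and each of the 25 flank windows had 5.36% to 22.6%, so the 2 sets did not overlap. At the left edge, within Aadat, the share went from 14.1% to 32.4% between adjacent windows. At the right edge, within Ddx60, it went from 34.3% to 11.1%. The first window beyond this edge, with 18 such sites, was also low in G0 at B53, with 61.1% between 88.6% and 79.5%. At B26 and B87 the 30 min share rose at the same left edge, from 16.3% to 36.8% and from 14.1% to 27.9%. On the right it fell 1 window earlier, from 25.0% to 11.4% and from 20.8% to 11.4%. Middle and flank windows overlapped at these 2 baits. In the G0 libraries of B118 the middle windows had 8.93% to 25.8% and the flank windows 2.78% to 25.0%. At B53 the 30 min medians were 26.2% in the middle and 46.6% in the flanks, and the G0 medians 85.5% and 74.2%.

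**Figure D4:**
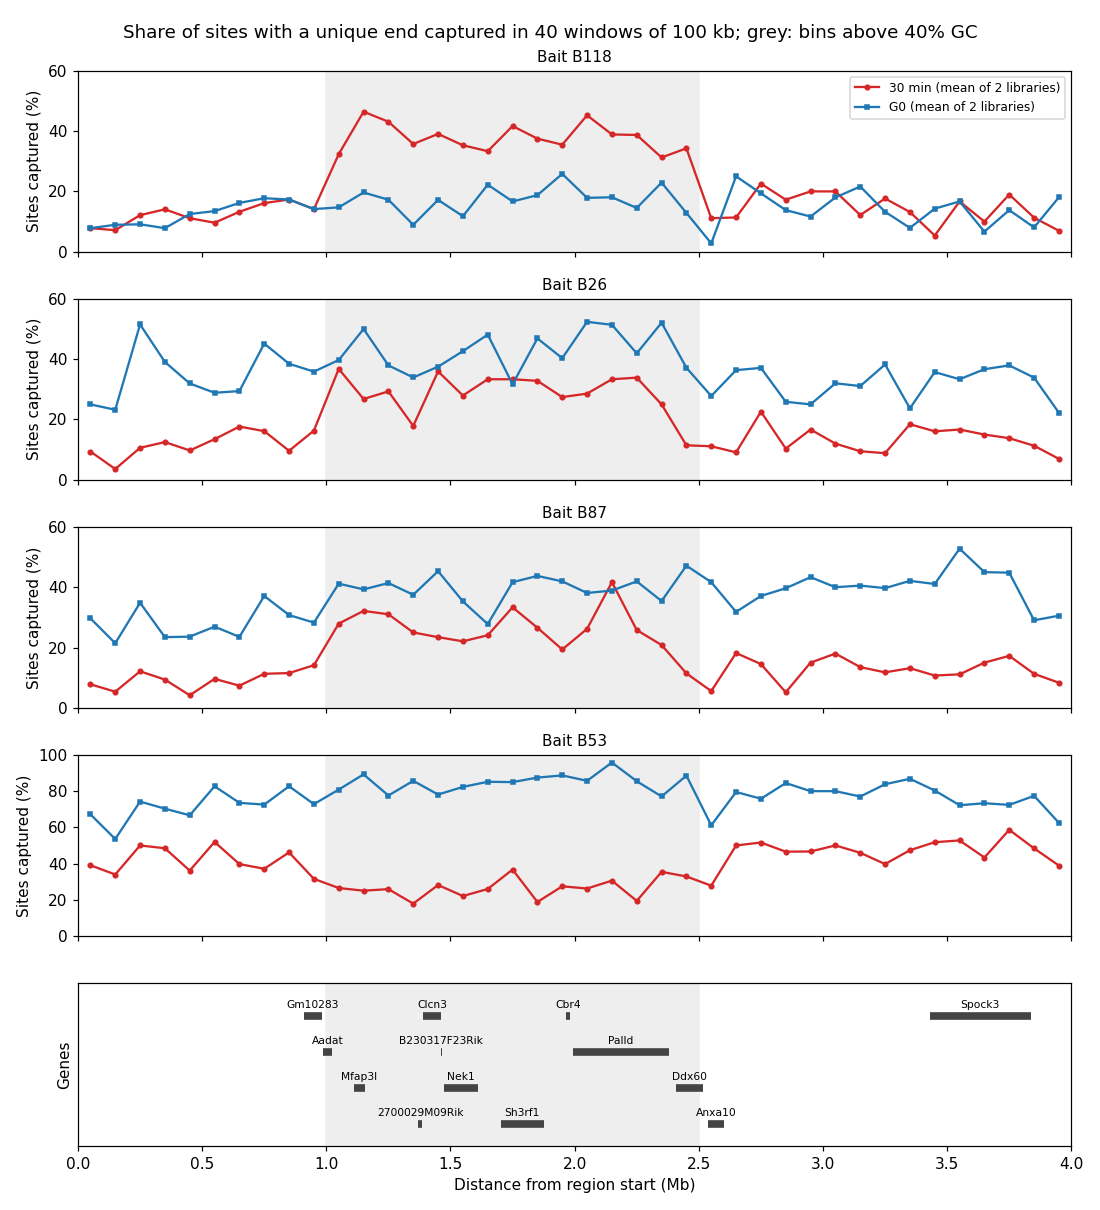
Percentage of sites with a unique end that were captured (vertical axes) in 40 windows of 100 kb (horizontal axis, Mb from the region's start) at B118, B26, B87 and B53, for 30 min (red circles) and G0 (blue squares), with the 13 protein-coding genes drawn to scale below. The 30 min line of B118 steps up from 14.1% to 32.4% at the left edge of the shaded middle and down from 34.3% to 11.1% at its right edge, and the 30 min line of B53 dips across the middle.

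Averaged over libraries, genes of the middle were captured more than genes of the flanks at B118. For the 9 genes with at least 10 sites, the share of a gene's sites captured at B118 averaged 39.1% ± 22.3 for Palld (138 sites, SD, n = 10), 33.3% ± 22.5 for Clcn3, 33.2% ± 19.1 for Sh3rf1, 31.4% ± 23.2 for Nek1, 27.8% ± 22.1 for Aadat and 27.4% ± 17.9 for Ddx60. The flank genes had 24.0% ± 18.4 for Gm10283, 21.5% ± 18.5 for Spock3 (117 sites) and 17.3% ± 20.3 for Anxa10 (11 sites). These SDs are wide, and libraries differ in both depth and label, so genes were set against each other within a library. In the deeper library labelled 30 min, the 6 genes of the middle had 41.7% to 59.2% of their sites captured at B118 and the 3 flank genes 9.09% to 17.1%. Palld had 50.7% there and Spock3 13.7%, although both genes are long (389 kb and 406 kb).

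Other libraries of the same bait did not separate these genes so far, and in some the order turned. In 1 h replicate 1 of B118 the flank gene Gm10283 had 42.9%, above every middle gene except Palld. In G0 replicate 1 it had 11.4%, above every middle gene, the highest of which was Ddx60 with 10.3%. In G2 it had 57.1%, between Clcn3 with 41.7% and Nek1 with 59.2%. In G0 replicate 2 of B118 Palld had 28.3% and Spock3 18.8%, and in the library labelled 1 h replicate 1 they had 47.8% and 37.6%. At B53 the order of the 2 genes turned with the label. Palld had 41.3% and Spock3 66.7% in 30 min replicate 1, 10.9% and 20.5% in 30 min replicate 2, and 2.90% and 18.8% at 3 h. In the 2 G0 libraries Palld had 84.8% and 84.8% and Spock3 67.5% and 65.8%. Ddx60, which crosses the right edge, had 43.6% at B118 and 20.5% at both B26 and B87 in 30 min replicate 1, below the 49.3% of Palld at those 2 baits. The separation of the gene groups was thus less complete elsewhere. In 30 min replicate 1 the middle genes had 20.5% to 52.6% at B26 and the flank genes up to 23.1%, and at B87 the values were 20.5% to 50.0% and up to 25.7%. Averaged over libraries the groups overlapped at B53 (50.8% to 55.9% against 39.7% to 52.4%) and at B7 (7.58% to 13.1% against 7.44% to 13.8%). They also overlapped at B44 (43.6% to 54.0% against 30.6% to 44.7%).

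Of the 5 most often captured single sites, 4 lay in the middle, which holds 510 of the region's 1363 sites. More of the middle's sites have both ends unique (90.2% against 76.7%), and 5 sites are too few to show a preference. The Palld intron site was captured in 48 of 70 libraries, in 11 of 12 at B26, 10 of 12 at B53, 9 of 11 at B118 and 3 of 12 at B7. At B26 its reads ran from 0 in 30 min replicate 2 to 615 in 1 h replicate 2, with 263 at 3 h and 251 at 4 h. At B118 it had 58 reads at 3 h, 54 at 4 h, 104 in 30 min replicate 2 and 0 in 30 min replicate 1, so a single site was present or absent between libraries of 1 label. The Sh3rf1 intron site was also captured in 48 libraries and the Nek1 intron site in 47. The middle intergenic site, captured in 45, was among the leading sites of B118 (9 of 11). The left flank site, captured in 46, was the only flank site among the 5, and it was captured in 11 of 12 libraries of B44 and 5 of 11 of B87.

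At B53 the leading site was the Spock3 intron site shown above, captured in 12 of 12 libraries with 5379 of the site's 6578 reads. It had 1107 reads in G0 replicate 1, 795 in M and 1 at 3 h. The same site was captured in 3 of 12 libraries of B26 and 4 of 11 of B118. B87's leading site lay in a Clcn3 intron (chr8:63426615-63426620, 9 of 11), B44's between genes in the Anxa10 bin (chr8:64687323-64687328, 11 of 12) and B7's between genes in the left flank (chr8:62588648-62588653, 7 of 12). All 9 of these sites have both ends unique in mm9. Median capture over all sites of the region was 26 of 70 libraries, with 29 in the middle and 24 in the flanks.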

How the data were processed

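The deposited table held raw read counts per HindIII site for 109 libraries, which the authors made with BWA 0.5.9 on mm9 per the submitters' processing notes. Read filters are not given in the sources used here. Reads went into edgeR and DESeq2 as raw counts, summed in bins and over the 2 technical replicates of 2 h. The main sign-flip tests used captured sites after thinning and division by the expected number. All table positions on chromosome 8 equal HindIII sites of mm9. Genes are from GENCODE of that build. The members and lists were chosen with earlier results of these data known. Bins of 500 kb more than 2 Mb from a bait and with at least 10 sites were used. Captured sites were thinned to 1 number per bait (682 to 2921), averaged over 10 draws, against a lowess on log distance (span 0.5, pseudocount 0.5). Read bins were tested with edgeR 4.0.16 (TMM, robust quasi-likelihood, Benjamini-Hochberg over all baits, R 4.3.3), with DESeq2 1.42.0 as an alternative. Other tests were two-sided exact sign-flip permutation tests. Named bins are the highest and lowest of each bait and those called; named sites are the 5 captured in most libraries and the first of each bait. Exceptions are named in the text. Labels call most replicates biological, but not from which cultures, so p-values measure only the spread between libraries or baits, which may share cultures. Tested on simulated data, both procedures recovered planted changes. Those planted for edgeR were larger than most changes seen in the region, so the recovery of small changes was not tested. Python 3.11.15 with numpy 2.4.6, pandas 2.3.3, scipy 1.17.1 and statsmodels 0.14.6 was used.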

Additional observations from a re-analysis of the deposited data

Results flagged for a closer look

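G0 against 2 to 4 h moved opposite ways at different baits with no overlap between libraries, and this difference between baits was not tested. For the whole region it was 0.27 at B26, -0.25 at B7 and -0.37 at B118. By reads B7 went the other way, and with all captured sites the libraries of B26 overlapped. For the ratio of the middle, from Aadat to Ddx60, over the flanks it was -2.24 at B26 and -1.37 at B87, and 1.07 at B53. At B26 the 3 h library captured 6 flank sites and the 4 h library 2.

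All 39 columns left out of the comparisons also had reads in the Palld and Ddx60 region, with 7 to 959 captured sites (median 32).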

How the results depend on the processing

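The 3 pairs of baits that differed in the region stayed 3 when each library was left out in turn (3 to 3). The Palld and Ddx60 bin alone gave 6, and 4 passed without pairing libraries by label (no replicate block). With the replicate number as a block, edgeR called 0 bins of the region in both contrasts; the labels do not say that a number marks a shared culture. For G0 against 2 to 4 h DESeq2 called 3 of the region's 48 bins over all 6 baits (361 of 1461 in all). With 1-Mb bins edgeR called 1 of 24 (165 of 735 in all), and with captured sites 2 of 48 (221 of 1447). Leaving out 2 h gave 5 of 48 (233 of 1460). In each case 1 of the region's calls was at B118, which is a description. For 2 to 4 h against first hour leaving out 2 h gave 3 of 48 (30 of 1460). Without any 1 other library both counts stayed at 0. The 2 contrasts over the region changed sign but stayed far from the threshold. G0 minus 2 to 4 h was 0.050 without B118, and over all 6 baits 0.022 with all captured sites, 0.11 with reads and 0.062 without the Palld and Ddx60 bin, and -0.047 to 0.0048 with libraries left out. 2 to 4 h minus first hour was 0.043 in 1-Mb bins, 0.14 in the Palld and Ddx60 bin, and -0.036 to 0.00031 with libraries left out. By reads the region had 0.24 at B44 and 0.21 at B53. In the Palld and Ddx60 bin it had 0.78 at B26, 0.34 at B44, 0.24 at B87 and 0.75 at B118, and without that bin -0.074 at B26. B53 minus B87 was -0.25 in that bin alone. The ratio of middle to flanks kept its sign at B26, B44, B87 and B118 in all alternatives, which were added after seeing the data. It ran from -0.53 to 0.01 at B53. The causes of these shifts were not tested. Libraries labelled 3 h and 4 h, with as few as 17 captured sites in the region, limit what single bins show.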
